A study of Mus musculus with 6 samples.

Results

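Antibodies are built from heavy and light chains, and each chain is encoded by a variable (V) segment joined to a constant (C) region. In the mouse the heavy chain locus lies on chromosome 12, the kappa light chain locus on chromosome 6 and the lambda light chain locus on chromosome 16. The heavy chain constant region sets the isotype: Ighm encodes IgM, Ighd IgD, Ighg3, Ighg1, Ighg2b and Ighg2c the IgG subclasses, Ighe IgE and Igha IgA. Large amounts of these transcripts are made by plasma cells, the antibody-secreting form of B cells, and IgA is carried across epithelia by the polymeric immunoglobulin receptor, Pigr. Here their transcripts were followed in common bile duct epithelium, as total RNA, from C57BL/6 mice with a construct for inducible Fgf10 (iFGF10).

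In the DOX+ group, 3 samples came from iFGF10 mice that drank 0.02% doxycycline, a drug used to switch on tetracycline-controlled genes, for 5 days. In the DOX- group, 3 samples came from mice labelled as untreated iFGF10 that had only water for 5 days, although their descriptions also carry names beginning with WT. No mice without the construct that drank doxycycline were analysed here, so effects of the drug and of the construct cannot be told apart. The sources used here do not give the promoter that drives the construct, the ages of the mice or whether a sample is 1 mouse or a pool. Each sample was hybridised to 1 Agilent 1-colour array, and the p-values therefore measure the spread between these samples. Where a probe was not well above background, that spread is one of background readings.

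The immunoglobulin probes were all non-control probes described as immunoglobulin heavy, kappa or lambda, or bearing a gene name that begins with Igh, Igk, Iglc, Iglj or Iglv, without Ighmbp2. This gave 244 of 56605 probes, for 213 gene names of 37008 on the array. Of these, 5 belong to other genes whose descriptions mention immunoglobulin (2 probes each of Rbpj and Rbpjl, and 1 of Igll1), and 239 are heavy, kappa or lambda chain probes of 210 named genes. They comprise 15 heavy constant, 103 heavy variable, 2 kappa constant, 106 kappa variable, 3 lambda constant and 3 lambda variable probes, and 7 heavy chain probes described only by a cDNA. In the files 7 of the 239 have no coordinates.

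The sequences of the probes that carry most of the results, each 60 bases long, are shown here, 5′ to 3′, on the mm9 build that the files use. The first set covers constant regions, and 1 heavy chain cDNA probe (Igh-VJ558) that lies close to Igha, and shows what the isotype readings rest on. All but Igkc and Iglc1 come from the heavy chain locus, whose genes are read from higher to lower coordinates.
Igha (chr12:114496985-114497044): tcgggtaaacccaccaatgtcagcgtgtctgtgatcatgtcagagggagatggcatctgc
Igh-VJ558 (chr12:114498348-114498407): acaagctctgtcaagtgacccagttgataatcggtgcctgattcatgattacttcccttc
Ighm (chr12:114659630-114659689): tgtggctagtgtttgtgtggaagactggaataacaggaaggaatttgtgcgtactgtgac
Ighg2b (chr12:114544738-114544797): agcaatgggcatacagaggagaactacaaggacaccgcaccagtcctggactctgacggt
Ighg2c (chr12:114525673-114525732): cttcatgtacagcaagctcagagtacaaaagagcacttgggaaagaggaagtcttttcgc
Igkc (chr6:70676692-70676751): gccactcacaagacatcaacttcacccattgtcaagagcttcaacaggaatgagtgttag
Iglc1 (chr16:19061905-19061964): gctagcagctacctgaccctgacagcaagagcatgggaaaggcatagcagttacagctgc

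The second set covers variable segments and shows how alike their probes are. Capitals mark the longest run that Ighv1-50 shares with Ighv1-54, and that Igkv8-28 shares with Igkv6-17. Igkv8-34 is shown because it passed the test described below.
Ighv1-50 (chr12:116358101-116358160): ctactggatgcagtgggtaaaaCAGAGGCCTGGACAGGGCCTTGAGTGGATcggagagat
Ighv1-54 (chr12:116432036-116432095): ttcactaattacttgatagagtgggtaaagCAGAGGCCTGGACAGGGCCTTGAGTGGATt
Igkv8-34 (chr6:69994227-69994286): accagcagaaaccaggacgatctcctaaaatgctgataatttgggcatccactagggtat
Igkv8-28 (chr6:70093587-70093646): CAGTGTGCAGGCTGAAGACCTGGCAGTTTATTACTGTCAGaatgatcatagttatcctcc
Igkv6-17 (chr6:70321926-70321985): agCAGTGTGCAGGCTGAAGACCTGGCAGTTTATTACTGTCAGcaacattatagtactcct

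The run shared by Ighv1-50 and Ighv1-54 is 29 bases long, and the run shared by Igkv8-28 and Igkv6-17 is 40 bases long. Of the 212 variable segment probes, 99 share a run of at least 20 bases with the probe of another segment, and the longest such run is 53 bases. None of the 20 constant region probes does, and their longest run shared with a probe of another gene is 14 bases. The Iglc3 probes share a run of at least 20 bases with each other. Only probes were compared with each other, so whether a constant region probe also reads transcripts of another isotype was not tested. Whether a variable segment probe also reads transcripts of related segments was not tested, so probes of a family cannot be counted as independent measurements.

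Immunoglobulin probes were seen on every array, and on more of them in DOX+ than in DOX-. Of the 239 probes, 48.1%, 66.5% and 74.1% were well above background on DOX+ arrays 1, 2 and 3, against 44.8%, 34.3% and 7.11% on DOX- arrays 1, 2 and 3. The lowest DOX+ array was thus close to the highest DOX- array, and DOX- replicate 3 stood far below every other array. Over all 56605 probes the same shares were 58.1%, 60.2% and 58.6% in DOX+ and 58.8%, 57.5% and 54.0% in DOX-.

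DOX- replicate 3 was also lowest in some other immune genes, but not in all. The median level of the 11 tested T cell genes was -2.04, -1.41 and -1.74 on the DOX+ arrays, against -1.22, -1.55 and -2.60 on the DOX- arrays. Within this list Cd8b1 was not low on DOX- replicate 3. The 14 tested B cell genes had medians of -0.93, -0.47 and -0.13 in DOX+, against -0.26, -0.05 and -0.54 in DOX-. By this median DOX- replicate 3 was not the lowest array. In the same list it had the lowest summed log2 level, 1.26. It also had the fewest genes well above background, 13 of 24, against 16 to 18 on the other arrays. Levels are log2 of the processed signal minus the 75th percentile of the array. Cd74, the invariant chain of MHC class II, singled out after its values were seen, had levels of 4.14, 3.86 and 4.05 in DOX+, against 4.22, 4.26 and 2.55 in DOX-. The part of this in the immunoglobulin values was not tested, and differences that move by over 1.5 times without DOX- replicate 3 are given both ways. In bulk RNA, fewer cells of a type and less RNA per cell cannot be told apart. All 6 arrays were on 1 slide. The 3 DOX+ arrays and DOX- replicate 1 shared its first row, and the second row held the other DOX- arrays.

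**Figure D1:**
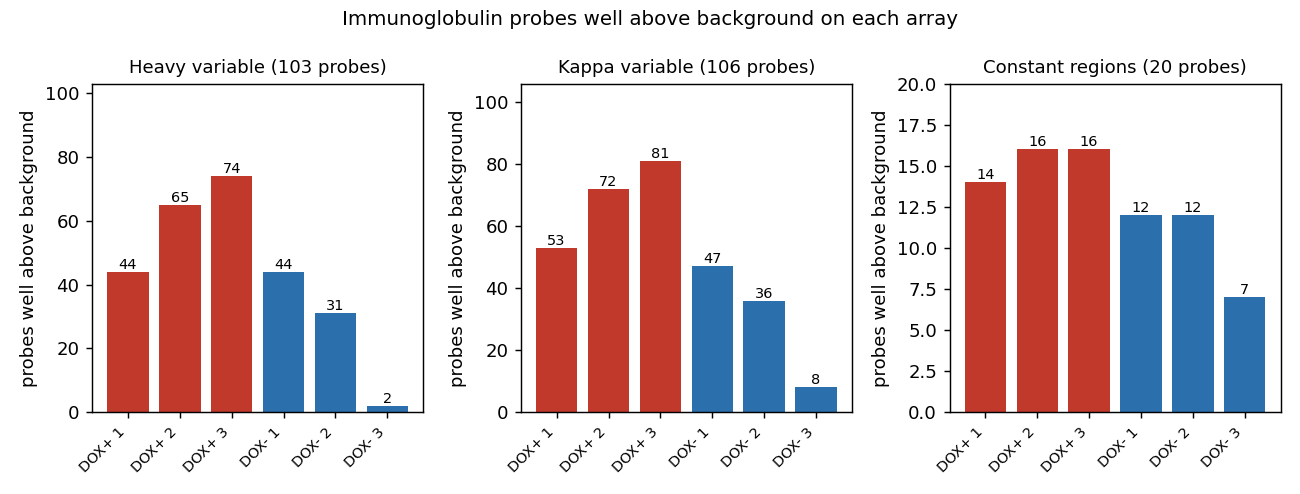
Number of probes well above background (y axis) on each array (x axis), for heavy variable, kappa variable and constant region probes; red bars are DOX+ and blue bars DOX-, and each y axis ends at the number of probes in the class. Heavy variable probes numbered 44, 65 and 74 in DOX+ and 44, 31 and 2 in DOX-, so DOX+ replicate 1 and DOX- replicate 1 had the same number.

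By class, the kappa variable probes well above background numbered 53, 72 and 81 in DOX+ and 47, 36 and 8 in DOX-. The constant region probes numbered 14, 16 and 16 in DOX+ and 12, 12 and 7 in DOX-. The most frequent pattern, after the 47 probes seen on no array, was detection on every array but DOX- replicate 3, which 45 probes showed. A further 25 probes were seen on the 3 DOX+ arrays and DOX- replicate 1 alone, 23 on DOX+ replicates 2 and 3 alone, 19 on DOX+ replicate 3 alone and 14 on the 3 DOX+ arrays alone. Only 13 of the 239 were well above background on all 6 arrays.

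The groups were compared with limma over the 31720 probes for which DOX+, DOX- or both had 3 of 3 arrays well above background. Of these, 18 (0.0567%) passed at an adjusted p under 0.05, 12 of them higher in DOX+ (0.0378%). Among the immunoglobulin probes 109 were tested and 4 passed, all higher in DOX+. Because 96 of the 109 were tested only through their detection in DOX+, counts and medians over these 109 follow in part from the filter. They are given as a description. The 4 that passed are among the 96, so their shared direction follows largely from the filter. With no filter, 0 of the 239 and 0 of all 56605 probes passed. At an unadjusted p under 0.05, 76 of the 109 passed, against 13% of all probes tested.

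Without any filter, 82 of the 239 had an unadjusted p under 0.05, against 8.9% of all 56605 probes. The median log2 difference, DOX+ minus DOX-, was then 1.92 over the 239 immunoglobulin probes and -0.07 over all probes. A filter that does not look at the groups, a mean over the 6 arrays above the detection floor, kept 118 immunoglobulin probes. It was chosen after seeing the data. A probe at background in DOX- can still pass it through high DOX+ levels, as Ighv1-50 did. The counts and medians under this filter are therefore also given as a description. The median difference of the 118 was 2.76, against 0.005 over the 32889 probes kept in all. The 3 DOX+ arrays lay above the 3 DOX- arrays for 66 of the 118, against 10.1% of all probes kept, and 1 of the 118 (Ighv1-50) passed the limma test, against 0.0182%. Without DOX- replicate 3 the median over the 118 was 1.78. Against DOX- replicate 1 alone, the array in the same slide row, it was 1.12.

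**Figure D2:**
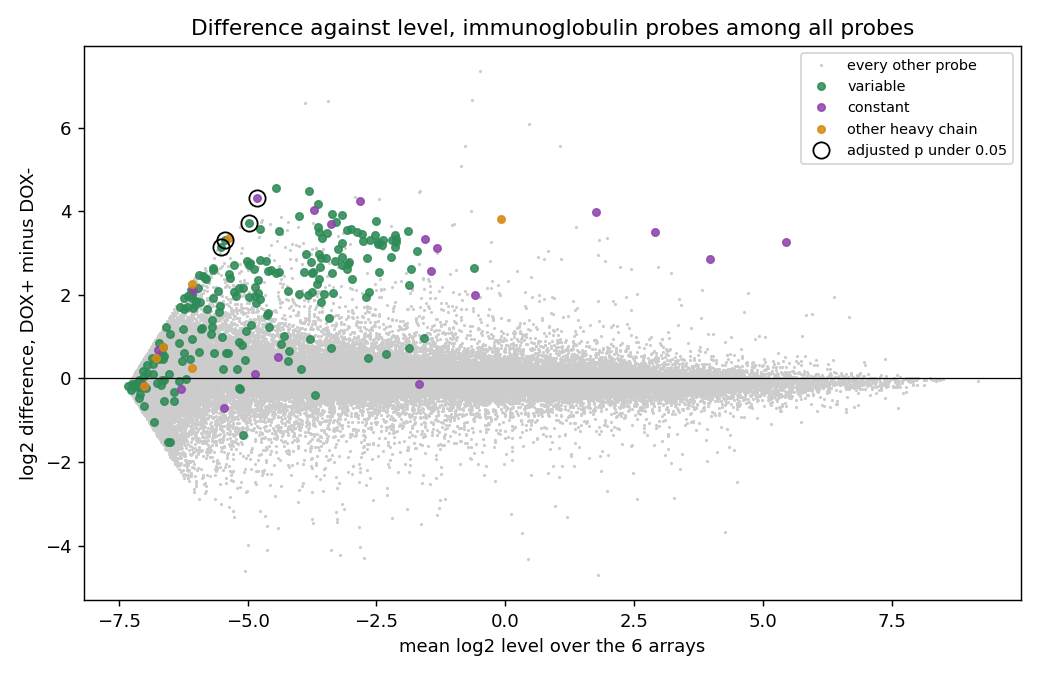
Log2 difference, DOX+ minus DOX- (y axis), against the mean log2 level over the 6 arrays (x axis) for every probe, with variable, constant and other heavy chain probes coloured and the 4 immunoglobulin probes past the test ringed. Most coloured points lie above 0, with a median of 1.92, and the ringed probes lie at low levels.

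The 4 probes that passed belong to Ighv1-50, Ighv1-55, Igkv8-34 and Ighg2c, and none of them was well above background on any DOX- array. A fold is therefore a lower bound, which holds for the processed signal and not for other background corrections. It sets the mean of the DOX+ arrays against a mean over the DOX- arrays. Each DOX- array enters with the higher of the probe's own level and the lowest level well above background on that array. Those lowest levels lay between -5.23 and -4.71 on the 6 arrays, and values below them have no order. The DOX- SDs of these 4 probes are thus the spread of background readings, and their p-values rest in part on it.

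Ighv1-50, a heavy chain variable segment of the large Ighv1 family, had levels of -3.53, -3.23 and -2.56 in DOX+, against -6.49, -7.04 and -6.93 in DOX-. It was at least 3.49-fold higher in DOX+ (limma adjusted p = 0.0224), and its measured means were -3.11 ± 0.50 and -6.82 ± 0.29 (SD, n = 3 each). The probe of Ighv1-54, with which it shares 29 bases, was well above background on DOX+ replicate 3 alone, and was not tested.

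Ighv1-55 had levels of -4.27, -3.56 and -3.50 in DOX+, against -7.16, -7.20 and -6.92 in DOX-. The probe, at chr12:116446703-116446761, was at least 2.19-fold higher in DOX+ (limma adjusted p = 0.0224; means -3.78 ± 0.43 and -7.09 ± 0.15, SD, n = 3 each). A second Ighv1-55 probe, at chr12:116446433-116446492, had levels of -2.58, -1.57 and -1.42 in DOX+, against -3.83, -5.26 and -6.98 in DOX-, and did not pass (limma adjusted p = 0.20). Both put the DOX+ arrays above the DOX- arrays, but the second was well above background on DOX- replicate 1.

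Igkv8-34, a kappa variable segment, had levels of -3.62, -4.57 and -3.60 in DOX+, against -7.21, -7.16 and -6.87 in DOX-. It was at least 1.97-fold higher in DOX+ (limma adjusted p = 0.042; means -3.93 ± 0.56 and -7.08 ± 0.18, SD, n = 3 each).

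One of 3 probes of Ighg2c, which encodes the IgG2c heavy chain of C57BL/6 mice, had levels of -3.59, -2.36 and -2.01 in DOX+, against -7.12, -7.07 and -6.75 in DOX-. It was at least 4.78-fold higher in DOX+ (limma adjusted p = 0.042; means -2.65 ± 0.83 and -6.98 ± 0.20, SD, n = 3 each). In each of these 4 the groups did not overlap, which follows from how they were filtered and called and is no further evidence (background 10.7% of all probes tested). All 4 lost the call when DOX- replicate 1, 2 or 3 was left out, with normexp background correction and when slide row was a block. With that block the limma adjusted p was 0.269 to 0.383, and without DOX- replicate 3 it was 0.0673 to 0.0933. The differences stayed above 0 in every alternative run.

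Of the 14 constant region probes tested, 9 had lower levels on each DOX- array than on any DOX+ array, against 10.7% of all probes tested. This count follows in part from the filter. The 9 were the higher Igha probe, both Igkc probes, 2 of 3 Ighm probes, Ighg2b, 2 of 3 Ighg2c probes and 1 of 2 Ighg3 probes. For Ighg3 the gap between the groups was only 0.02. Igha and Igkc had much lower levels on DOX- replicate 3 than on the other 5 arrays. Igha had levels of 6.51, 7.07 and 7.66 in DOX+, against 6.29, 5.63 and -0.49 in DOX-. The groups did not overlap, but DOX- replicate 1 was close to DOX+ replicate 1, and DOX- replicate 3 was far below every other array. The difference of 3.27 (SE 1.72) did not pass (limma adjusted p = 0.473), and without DOX- replicate 3 it was 1.12. A second Igha probe, 3450 bases further along the gene's direction of reading, was dim on all 6 arrays.

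The Igh-VJ558 probe printed above lies 1363 bases before the Igha probe in that direction and is described only as a heavy chain cDNA. It had levels of 1.08, 1.59 and 2.79 in DOX+, against 1.03, -0.07 and -6.93 in DOX-. The order of the arrays was that of Igha, and the difference of 3.81 (SE 2.00) did not pass either (limma adjusted p = 0.472). Without DOX- replicate 3 it was 1.34. Of the other 2 Igh-VJ558 probes, 1 was well above background on DOX- replicate 1 alone and 1 on no array.

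Igkc, the only kappa constant region, is measured by 2 probes. The one printed above had levels of 4.07, 4.59 and 5.29 in DOX+, against 3.66, 2.35 and -2.59 in DOX-. The other, at chr6:70676886-70676945, had 4.69, 5.37 and 6.11 in DOX+, against 4.23, 3.23 and 0.16 in DOX-. Both gave the same order of arrays, with no overlap between the groups. Their differences were 3.51 (SE 1.53) and 2.85 (SE 1.02), limma adjusted p = 0.402 and 0.335, and without DOX- replicate 3 they were 1.64 and 1.67.

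The 3 Ighm probes did not give the same picture. The Ighm probe printed above had levels of 0.02, 2.16 and -1.85 in DOX+, against -2.39, -2.57 and -4.74 in DOX-, where the last was not well above background. A second, at chr12:114658982-114659041, had 3.47, 5.86 and 1.96 in DOX+, against 0.68, 0.27 and -1.64 in DOX-. Both put DOX+ replicate 2 at the top and all DOX+ arrays above all DOX- arrays. Their differences were 3.34 (SE 1.09) and 3.99 (SE 1.06), limma adjusted p = 0.31 and 0.248, and 2.59 and 3.29 without DOX- replicate 3.

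The third Ighm probe, at chr12:114656770-114656829, lies 2860 bases beyond the first in the direction of reading. It had levels of -1.80, -1.36 and -2.09 in DOX+, against -0.70, -1.12 and -3.03 in DOX-. The groups overlapped, 2 of 3 DOX- arrays were higher than every DOX+ array, and the difference was -0.14 (SE 0.60, limma adjusted p = 0.95). In heavy chain genes the exons for the membrane-bound form lie beyond those for the secreted form, and the files do not say which form a probe reads.

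For the IgG subclasses, Ighg2b had levels of -4.44, 0.35 and -0.97 in DOX+, against -5.25, -5.35 and -6.58 in DOX-, none of the last well above background. It was at least 9.34-fold higher in DOX+, but DOX+ replicate 1 lay close to the DOX- arrays and the test was not passed (limma adjusted p = 0.274). This probe was spotted 10 times, and the SD between its spots was 0.378, 0.0396 and 0.0647 log2 units on the DOX+ arrays, against 0.287, 0.296 and 0.53 on the DOX- arrays.

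The other 2 Ighg2c probes had, like Ighg2b, a DOX+ replicate 1 far below DOX+ replicates 2 and 3. At chr12:114525600-114525659 the levels were -4.26, -0.25 and -0.08 in DOX+, against -5.35, -4.76 and -5.58 in DOX-. At chr12:114525496-114525555 they were -3.68, 1.27 and 0.32 in DOX+, against -3.52, -4.51 and -6.80 in DOX-, so that DOX+ replicate 1 and DOX- replicate 1 changed places. That probe also carries the transcript identifier of Ighg2b. Their differences were 3.70 (SE 1.10) and 4.25 (SE 1.42), limma adjusted p = 0.281 and 0.318.

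Ighg1 was well above background on DOX+ replicates 2 and 3 alone, with levels of -7.18, -3.89 and -3.92 in DOX+, against -7.26, -7.21 and -6.90 in DOX-. It was not tested, and its probe carries an Ighg2c transcript identifier as well. Of the 2 Ighg3 probes, 1 was dim on all 6 arrays. The other, whose coordinates span 1532 bases, had levels of -4.31, -4.17 and -3.99 in DOX+, against -4.64, -4.33 and -5.00 in DOX- (difference 0.50, SE 0.20, limma adjusted p = 0.376, and 0.33 without DOX- replicate 3).

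IgD and IgE gave little signal. One Ighd probe was on no array well above background, and the other was so on DOX+ replicate 2 and DOX- replicate 1 alone, with levels of -4.28 and -4.35. Ighe, the isotype bound by mast cells and basophils, was well above background on DOX+ replicate 3 at -3.89 and on DOX- replicate 3 at -3.12. Its highest level was thus on DOX- replicate 3.

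The lambda chain probes gave another order of arrays than Igkc. Iglc1 had levels of -2.78, 2.04 and 1.96 in DOX+, against -2.18, 2.14 and -4.73 in DOX-. It was high on DOX+ replicates 2 and 3 and DOX- replicate 2 and low on DOX+ replicate 1 and DOX- replicate 1, so the groups overlapped (difference 2.00, SE 2.02, limma adjusted p = 0.709, and 0.43 without DOX- replicate 3). Iglv1, a lambda variable segment, had levels of -2.39, 0.13 and 0.72 in DOX+, against -2.35, -0.25 and -6.82 in DOX-, the same high and low arrays (difference 2.63, limma adjusted p = 0.551, and 0.79 without DOX- replicate 3). The Iglc3 probes differed from it in DOX- replicate 2: one had levels of -1.13, 0.80 and 1.02 in DOX+, against -0.90, -2.16 and -5.59 in DOX-, and the other, which overlaps it, gave the same order (limma adjusted p = 0.371 and 0.324). Their differences of 3.12 and 2.57 were 1.76 and 1.84 without DOX- replicate 3.

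**Figure D3:**
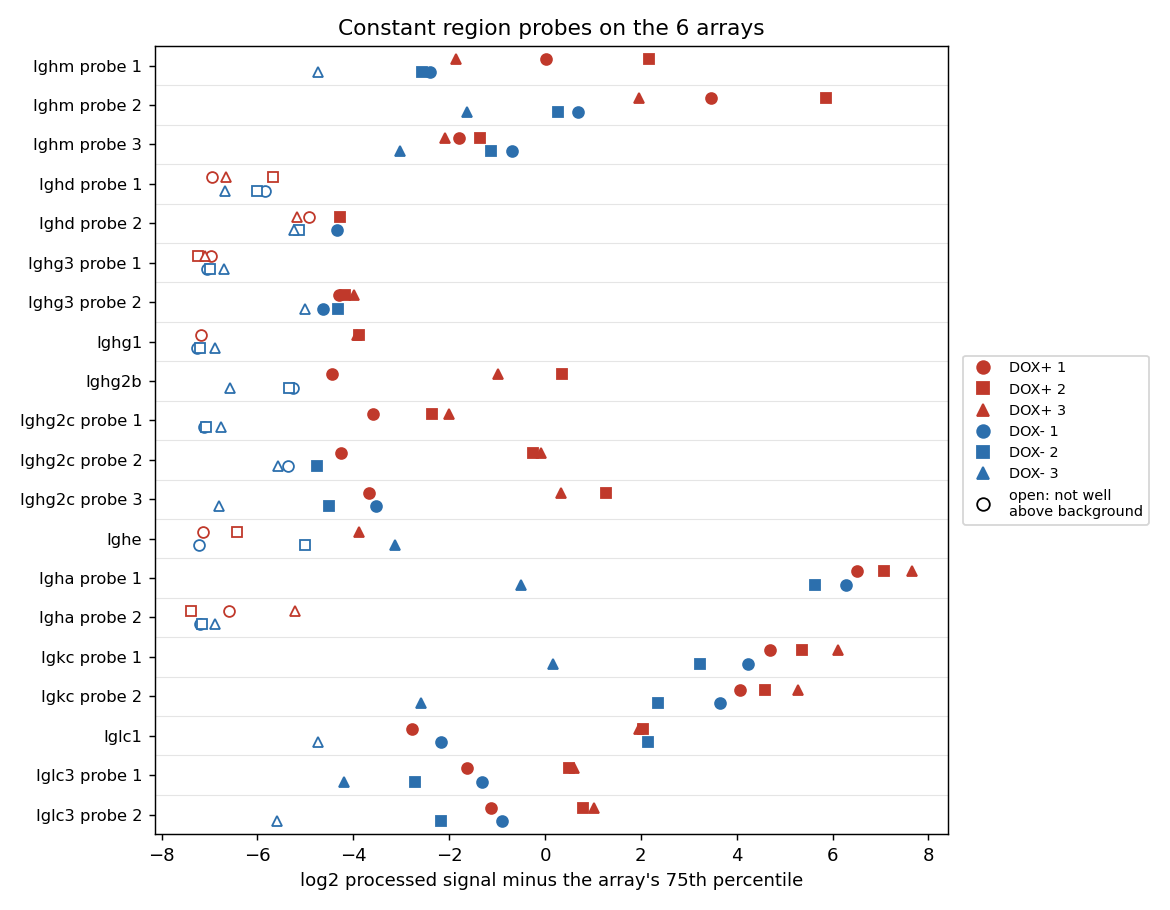
Log2 level (x axis) of the 20 constant region probes (rows, by isotype and, within a gene, from higher to lower coordinate) on the 6 arrays; red symbols are DOX+, blue symbols DOX-, and open symbols were not well above background. Igha and both Igkc probes are low on DOX- replicate 3 alone, the third Ighm probe does not separate the groups, and Iglc1 places DOX- replicate 2 beside DOX+ replicates 2 and 3.

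Among variable segments, 42 of 103 heavy, 49 of 106 kappa and 2 of 3 lambda probes were tested. Of these 93, 92 had a higher mean in DOX+ and 1 a lower mean, a count that the filter largely fixes. The pattern across arrays differed by family, given here as the median level over every probe of the family, tested or not.

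Ighv1, the largest heavy chain family on the array with 49 probes of 45 genes, had medians of -3.23, -3.36 and -2.06 in DOX+, against -4.06, -5.02 and -6.85 in DOX-. The groups did not overlap. Its probes well above background numbered 34, 40 and 42 in DOX+ and 31, 20 and 0 in DOX-. Igkv4, the largest kappa family with 27 probes, had medians of -2.17, -2.26 and -1.61 in DOX+, against -2.25, -5.02 and -6.74 in DOX-. Here DOX- replicate 1 was level with the DOX+ arrays.

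Igkv1 (11 probes) had medians of -4.07, -2.74 and -3.27 in DOX+, against -5.86, -5.75 and -6.82 in DOX-, and only 2 of its probes were well above background on DOX- replicate 1, against 5 on DOX- replicate 2. Igkv6 (12 probes) had medians of -4.70, -4.42 and -2.67 in DOX+, against -3.59, -5.30 and -6.85 in DOX-. DOX- replicate 1 thus exceeded 2 DOX+ arrays in Igkv6, while in Igkv1 it was below all 3.

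Igkv3 and Ighv8 were lacking on DOX+ replicate 1. Igkv3 (9 probes) had medians of -7.06, -3.05 and -2.55 in DOX+, against -6.75, -4.98 and -6.83 in DOX-, with 0, 8 and 9 probes well above background in DOX+ and 1, 4 and 0 in DOX-. Ighv8 (6 probes) had medians of -6.95, -2.53 and -4.24 in DOX+, against -6.27, -3.94 and -6.90 in DOX-. In both families DOX+ replicates 2 and 3 and DOX- replicate 2 were the 3 highest arrays, and neither had a probe in the test.

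Igkv8 (9 probes) had medians of -3.62, -4.57 and -2.92 in DOX+, against -5.14, -5.37 and -6.79 in DOX-. Ighv5 (8 probes) had -4.31, -4.84 and -2.90 in DOX+, against -5.55, -7.11 and -6.84 in DOX-. In both, the groups did not overlap. Ighv2 and Ighv3 (7 probes each) had no probe well above background on DOX+ replicate 1, and 5 and 6 on DOX+ replicate 3. Ighv6 (5 probes) had 1 on each of DOX+ replicates 2 and 3 and DOX- replicate 2, and none on the others. DOX+ replicate 3 had the highest median of all arrays in Ighv1, Igkv4, Igkv6, Igkv3, Igkv8 and Ighv5, and not in Igkv1 or Ighv8.

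**Figure D4:**
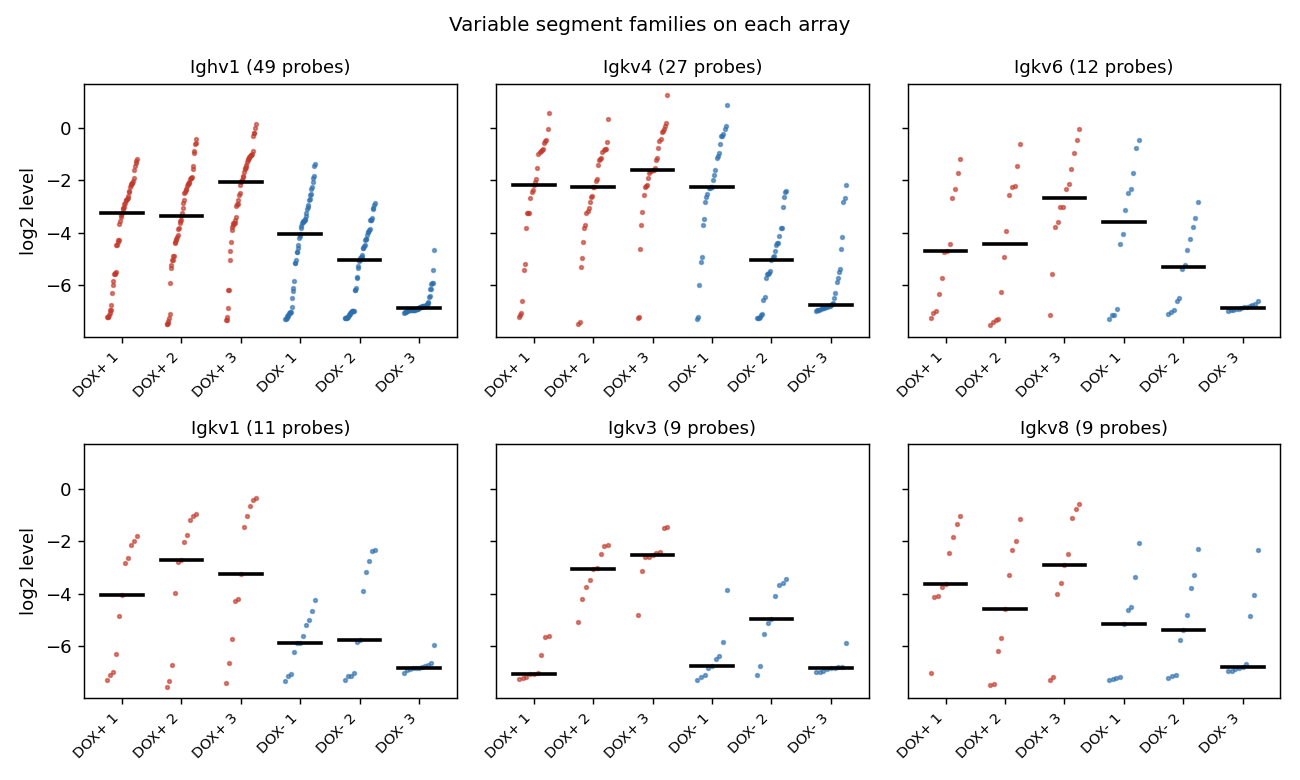
Log2 level (y axis) of every probe of the 6 variable segment families with at least 9 probes, on each array (x axis); points are probes, red for DOX+ and blue for DOX-, and black bars are medians. Igkv4 has DOX- replicate 1 level with the DOX+ arrays at -2.25, and Igkv3 is at background on DOX+ replicate 1 with a median of -7.06.

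Of the 10 variable or other heavy chain probes with the smallest p, 7 did not pass after adjustment. AY208318, a variable region cDNA without coordinates, was at least 2.35-fold higher in DOX+ (limma adjusted p = 0.0679), Ighv1-56 at least 5.76-fold (0.0744), Igkv1-88 at least 1.75-fold (0.0917) and Ighv1-81 at least 6.66-fold (0.104). All 4 were well above background on every DOX+ array and on no DOX- array.

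Igkv8-28 was seen above background on each of the 6 arrays and had levels of -1.83, -1.14 and -0.57 in DOX+, against -3.36, -3.78 and -4.06 in DOX- (difference 2.55, SE 0.35, limma adjusted p = 0.0995). Igkv6-17, with which it shares 40 bases, had -1.19, -0.63 and -0.06 in DOX+, against -3.13, -3.44 and -6.60 in DOX-, (difference 3.76, SE 0.92, limma adjusted p = 0.221), and is given for that shared run. The order of the arrays was the same in both. Igkv6-32 and Igkv8-30 were well above background on the DOX+ arrays and DOX- replicate 1, with differences of 3.90 (SE 0.64) and 3.94 (SE 0.67) and limma adjusted p = 0.142 and 0.15.

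Of the variable or other heavy chain probes with the highest means over the 6 arrays, Igkv4-71 had levels of 0.57, 0.35 and 1.24 in DOX+, against 0.86, -2.45 and -4.17 in DOX-. Ighv14-3 had -0.95, 0.09 and 0.34 in DOX+, against -0.74, -2.48 and -6.49 in DOX-. In both, DOX- replicate 1 lay within the range of the DOX+ arrays, and neither passed (limma adjusted p = 0.412 and 0.414). Their differences were 2.65 and 3.06, and without DOX- replicate 3 they were 1.52 and 1.43.

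A few kappa probes varied little across the arrays. Igkv4-72 had levels of -0.83, -1.21 and -1.22 in DOX+, against -1.61, -2.42 and -2.16 in DOX- (difference 0.97, SE 0.24, limma adjusted p = 0.228). Igkv8-19, singled out after its values were seen, had -1.35, -2.01 and -1.13 in DOX+, against -2.09, -2.28 and -2.33 in DOX-, and Igkv4-50, likewise, had -2.17, -2.84 and -2.25 in DOX+, against -2.83, -3.03 and -2.84 in DOX-. These probes stayed well above background on DOX- replicate 3, where the medians of their families were at background.

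Of the 5 probes of other genes, 2 were tested. Rbpj, the transcription factor of the Notch pathway, had differences of 0.05 and -0.0016 at its 2 probes (limma adjusted p = 0.923 and 0.998), and the probe of Igll1, a part of the surrogate light chain of developing B cells, was on no array well above background. Of the 2 Rbpjl probes, 1 was on no array well above background and 1 on DOX- replicates 2 and 3 alone.

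Genes of plasma cells, B cells and immunoglobulin transport were read in 8 lists of 129 genes, not all of which were tested. Each tested gene was read through its tested probe with the highest mean. None of them passed, against 0.0567% of all probes tested, so at that share few or no calls would be looked for. Jchain, which joins the units of IgA and IgM polymers, had levels of 2.60, 3.28 and 3.67 in DOX+, against 2.21, 1.44 and -4.97 in DOX-. The order of the arrays was that of Igha and Igkc, with DOX- replicate 3 not well above background (difference 3.63, SE 1.81, limma adjusted p = 0.453). Mzb1, an endoplasmic reticulum protein that assists antibody assembly and secretion, had -2.67, -2.09 and -1.39 in DOX+, against -3.51, -4.15 and -6.75 in DOX- (difference 2.75, SE 0.84, limma adjusted p = 0.293).

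Without DOX- replicate 3 the differences of Jchain and Mzb1 were 1.36 and 1.78. Of the 17 tested plasma cell genes, 11 had a higher and 6 a lower mean in DOX+, against 50.9% higher over all probes tested, and the median difference was 0.10. Eaf2, a transcription elongation factor, differed by 1.55 (SE 0.28, limma adjusted p = 0.158), Cd28, a costimulatory receptor, by 1.22 (SE 0.32, 0.243) and Pou2af1, a B cell coactivator, by -0.68 (SE 0.22, 0.302).

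Cd79a and Ms4a1, markers of B cells before the plasma cell stage, were close to background, but this did not hold for the whole list. Cd79b, singled out after its values were seen, had levels of -0.90, -0.26 and 0.30 in DOX+, against -0.36, 0.06 and 0.36 in DOX-. It was well above background on all 6 arrays, as were Cd22 and Cr2, while 3 genes of the list were so on no array. Cd79a, the signalling partner of the B cell receptor, had levels of -4.53, -5.28 and -4.50 in DOX+, against -4.80, -5.08 and -5.16 in DOX-. Cd79a was well above background on 2 DOX+ arrays and 1 DOX- array, and Ms4a1, which encodes CD20, on 2 and 2. Of the 24 B cell genes 14 were tested, 8 higher and 6 lower, with a median difference of 0.32, and -0.05 without DOX- replicate 3. Their summed log2 level was 2.69 to 4.71 in DOX+ and 1.26 to 4.16 in DOX-, lowest on DOX- replicate 3. Ebf1, Cr2 and Cd22, among those with the smallest p, had differences of 0.65, 0.39 and 0.35 (limma adjusted p = 0.297, 0.384 and 0.501).

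Genes of rearrangement and class switching gave no difference that passed. Rag1, of the recombinase, was dim on all 6 arrays. Of the 16 genes of this list 10 were tested, 4 higher and 6 lower, with a median of -0.10. Nfil3, Bcl6, Ung and Dclre1c had the smallest p, with differences of -0.70, -0.53, -0.19 and 0.29 (limma adjusted p from 0.435 to 0.665). Without DOX- replicate 3 those of Bcl6, Ung and Dclre1c were -0.29, -0.11 and 0.04.

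Pigr, the epithelial carrier of IgA, had levels of 6.73, 6.44 and 7.21 in DOX+, against 6.82, 6.88 and 6.72 in DOX-, with a difference of -0.01 (SE 0.21, limma adjusted p = 0.987). The 10 tested genes of transport and Fc receptors, 4 of them higher in DOX+, had a median difference of -0.05. Pigr was not low on DOX- replicate 3, the array that was low for Igha and Jchain. Fcgrt, the neonatal Fc receptor for IgG, had 1.44, 1.54 and 1.22 in DOX+, against 0.57, 0.10 and 0.23 in DOX- (difference 1.10, SE 0.18, limma adjusted p = 0.136). Trim21, a cytosolic antibody receptor, differed by -0.44 (SE 0.19, 0.406).

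Of the chains of the IgE receptor, Fcer1a and Ms4a2 had higher means in DOX+ and Fcer1g a lower mean, and none passed. Fcer1a had levels of -2.97, -1.72 and 0.04 in DOX+, against -4.00, -5.16 and -5.71 in DOX- (difference 3.40, SE 0.80, limma adjusted p = 0.212). Ms4a2 had -4.19, -2.68 and -0.40 in DOX+, against -4.47, -7.33 and -7.04 in DOX- (difference 3.86, SE 1.13, limma adjusted p = 0.275). Both genes put the 3 DOX+ arrays above the 3 DOX- arrays, and both were well above background on only 1 DOX- array, so the values of the other DOX- arrays are bounds. Fcer1g, singled out after its values were seen, had 1.69, 0.90 and 1.56 in DOX+, against 2.40, 2.61 and 0.51 in DOX- (difference -0.45, limma adjusted p = 0.773, and -1.12 without DOX- replicate 3), and its groups overlapped.

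Of 9 tested genes for recruitment and survival of B cells, 7 had a higher mean in DOX+ and 2 a lower mean (median 0.29). Ccl20, a chemokine for CCR6-bearing lymphocytes, differed by -2.32 (SE 0.52, limma adjusted p = 0.201), Ccl28, which draws IgA plasma cells to mucosa, by -0.66 (SE 0.27, 0.377), Ccl25 by 0.88 (SE 0.44, 0.45) and Tnfsf13b, the survival factor BAFF, by 0.80 (SE 0.50, 0.538), or by 0.25 without DOX- replicate 3.

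Of the 11 tested T cell genes 8 were higher and 3 lower, with a median difference of 0.18, and -0.04 without DOX- replicate 3. Their summed log2 level was -18.77 to -15.07 in DOX+ and -25.58 to -16.54 in DOX-. The 4 with the smallest p were Cd2, Lat, Cd5 and Cd8b1, with differences of 0.55, 0.73, 0.98 and -0.37, and of 0.49, 0.28, 0.31 and -0.21 without DOX- replicate 3.

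Genes of epithelium, the labelled tissue, and genes of fibroblasts and smooth muscle were both seen. The tested epithelial genes had median levels of 2.23, 2.84 and 2.87 in DOX+, against 3.72, 3.83 and 4.12 in DOX-. Those of fibroblasts and smooth muscle had 4.01, 3.38 and 2.87 in DOX+, against 4.25, 3.70 and 4.20 in DOX-. The shares of these cell types in the samples were not tested. Epcam had levels of 2.12, 2.62 and 2.33 in DOX+, against 2.39, 2.70 and 2.60 in DOX- (limma adjusted p = 0.652), and Krt19, a cholangiocyte keratin, 7.31, 7.03 and 6.96 in DOX+, against 6.91, 7.33 and 7.88 in DOX- (0.695). Of 12 tested epithelial genes 2 had a higher and 10 a lower mean in DOX+ (median -0.22); Cdh1, Krt7, Cldn7 and Krt8 had the smallest p, with differences of -2.01, -1.02, -0.79 and -0.34 (adjusted p from 0.157 to 0.404). Fibroblast and smooth muscle genes were well above background on all 6 arrays for 10 of 10 tested, 5 higher and 5 lower, with a median of 0.12 and of -0.97 against DOX- replicate 1 alone; Col1a1, Col1a2, Col3a1 and Dcn had the smallest p, with differences of -0.81, -0.40, -0.45 and 0.41, the last 0.18 without DOX- replicate 3. The part of these cells in the immunoglobulin values was not tested.

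**Figure D5:**
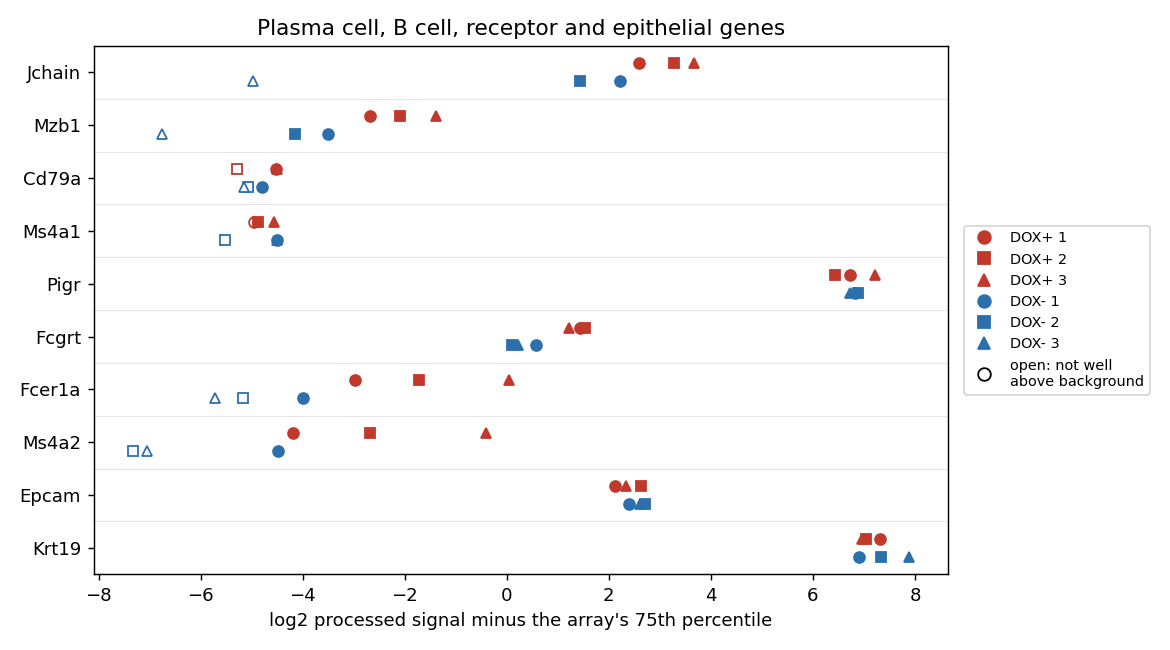
Log2 level (x axis) of plasma cell, B cell, receptor and epithelial genes (rows) on the 6 arrays; red symbols are DOX+, blue symbols DOX-, and open symbols were not well above background. Jchain and Mzb1 are lowest on DOX- replicate 3, Cd79a and Ms4a1 lie near background on all arrays, and Pigr lies between 6.44 and 7.21.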

How the data were processed

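Total RNA of 6 bile duct epithelium samples was measured on Agilent 1-colour mouse arrays. The deposited scanner files hold intensity values that the authors obtained from Feature Extraction (10.7.1.1 per the file headers, 9.5.1.1 per the submitters' processing notes). The processed signal is background-subtracted intensity per the file headers. Detection and outlier flags, the other values used, also came from the deposited scanner files. The authors' deposited value table, also of intensity, was used as an alternative.

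Control spots and spots with an outlier flag were left out, log2 of the processed signal was reduced by the 75th percentile of the array, and spots of 1 probe were averaged. Probes with 3 of 3 arrays well above background in either group were tested in R 4.3.3 by limma 3.58.1 (two-sided moderated test, Benjamini-Hochberg adjustment over 31720 probes, threshold 0.05). The script was tested on simulated data. An exact permutation test of 3 against 3 cannot go below p = 0.1 and was not used. Coordinates are mm9 as in the files. Names came from a RefSeq table of GRCm38.p6, through accessions for 32994 probes, symbols for 10224 and older symbols for 520, and 12867 kept the files' names. The number of arrays limits the precision.

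The members and the gene lists were chosen with earlier results of these data known. Named are every constant region probe, every immunoglobulin probe past the test, the 10 variable or other heavy chain probes with the smallest p and the 5 with the highest mean, the 4 genes of each list with the smallest p, and Jchain, Mzb1, Cd79a, Ms4a1, Pigr, Epcam and Krt19. Some genes that this rule names are not reported here. Alternatives covered background correction, scaling, filters, 1 probe a gene, slide row, replicate block, array weights, intensity trend and each array left out.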

Additional observations from a re-analysis of the deposited data

How the results depend on the processing

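The count of immunoglobulin probes past the limma test, 4 in the values reported, was 0 with normexp correction, with only probes detected on all 6 arrays, with no filter (82 of 239 at an unadjusted p under 0.05) and when slide row was a block (23 of 109). It was 1 with 1 probe a gene, 2 with an intensity trend, 15 with array weights, and 1 with the mean filter and 0 with that filter without DOX- replicate 3, both chosen after seeing the data. Leaving out 1 array gave 0 to 5: 1 without DOX+ replicate 2 and 0 without DOX- replicate 2 or 3. The 3 called without DOX- replicate 1 were other probes than the 4 reported. Over all probes, 18 calls became 9 with normexp, 8 on all 6 arrays, 0 with no filter, 8 with 1 probe a gene, 0 with the slide row, 463 with array weights, 6 with the mean filter, 1 with it without DOX- replicate 3, and 0 to 29 with 1 array left out. With the replicate block, both counts were 0 (64 of 109 and 3442 of 31720 at an unadjusted p under 0.05). Same-numbered samples correlated at -0.05, -0.13 and 0.00 in their deviations from the group means. Deviations from a mean of 3 arrays constrain one another, so these values cannot settle whether the samples were paired. The cause of these changes was not tested.

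The median difference of the tested probes lay between 1.16 and 3.48 in every alternative, against 2.87. It was 1.36 with normexp and 1.16 with the slide row. For heavy variable probes it was 1.24 and 1.03, for kappa variable 1.58 and 1.11 (0.86 on all 6 arrays), for kappa constant 1.08 with the slide row, and for heavy constant 2.12 with no filter. The B cell median was -0.10 with array weights, -0.049 to 0.25 with 1 array left out (lowest without DOX- replicate 3, also under the mean filter), and the fibroblast median -0.97 with the slide row. B and plasma cell, Fc receptor and class switch genes past the test numbered 4 with array weights and 0 to 1 with 1 array left out. Of 517 values for 29 named probes, 5 changed sign: the third Ighm probe was 0.03 without DOX+ replicate 3, and 0.32 and 0.11 without DOX- replicates 1 and 2 (lowest -0.84, without DOX- replicate 3), Igkv4-71 was -0.13 with the slide row, and Iglc1 -0.59 with array weights. Levels under the detection floor limit all folds of dim probes.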
